A study of Homo sapiens with 10 samples.

Results

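The genes described here encode the core enzymes of the DNA replication fork: POLA1 and PRIM1 of DNA polymerase α-primase, POLD1 of polymerase δ, POLE of polymerase ε, the sliding clamp PCNA, the clamp loader subunits RFC2, RFC3 and RFC4, the flap nuclease FEN1 and the DNA ligase LIG1. They were chosen by name, and each of the 10 matched a single row among the 32738 genes of the count table. All 10 passed the filter on low counts and are among the 12733 genes tested. The cells were HepG2, a human hepatoma line that grows as a proliferating culture. Control cells received regular growth medium and treated cells received medium with 2 µg/ml tunicamycin, an inhibitor of N-linked glycosylation that causes stress in the endoplasmic reticulum, for 17 h. There were 5 libraries per condition, from 5 replicate experiments on separate days, and both conditions used the same line without any genetic change named in the labels. Sequencing was done by QuantSeq, which reads near the 3′ end of each mRNA, so that 1 tag stands for 1 transcript whatever its length.

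At a replication fork, polymerase α-primase lays down a short RNA-DNA primer. The clamp loader, replication factor C, recognises the primer end and opens the ring of PCNA around it, and the clamp then tethers polymerase δ, the main enzyme of the lagging strand. Polymerase ε carries out most leading strand synthesis. On the lagging strand FEN1 removes the displaced primer flap and LIG1 seals the nick that remains, with both enzymes held at the DNA by PCNA. Transcription of many of these genes rises as cells enter S phase, and their mRNAs are known as markers of proliferating cells.

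Total counts per library were between 4242538 and 4888292 in controls and between 2234682 and 5029864 with tunicamycin, where replicate 5 was the shallowest and replicate 4 was next with 3567316. The 10 genes together took 2132 to 2583 counts in control libraries and 557 to 1291 in tunicamycin libraries, or 457 to 551 and 222 to 264 CPM (counts scaled to the same library total). The mitochondrial share of reads was 22.7% to 25.2% in controls and 18.3% to 28.8% with tunicamycin. All 8 hepatocyte markers looked for (such as ALB, APOB and AFP) were expressed in every library, at a summed 14720 to 19133 CPM in controls and 10512 to 12842 with tunicamycin. Of the leukocyte markers, PTPRC and CD3E were at 0, CD68 was between 2.24 and 8.39, and LYZ, the gene for lysozyme, was at 269 to 452 CPM over both conditions. The fibroblast markers DCN and LUM were at 0, and all fibroblast or endothelial markers found in the table summed to at most 5.05 CPM in a library. Among all tested genes, edgeR's quasi-likelihood test found 16.6% lower and 17.6% higher in treated cells (adjusted p under 0.05). The share of higher genes among those that differed was 51.4% with the TMM scaling used here and 40.8% with scaling by library size only.

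The replication genes were lower in tunicamycin-treated cells. By this test 9 of 10 passed, all of them lower, against the 16.6% of all tested genes given above, and 0 were higher. PRIM1 was the gene that did not pass. The median log2 fold change of the 10 genes was -1.13, with a range of -1.55 (LIG1) to -0.55 (PRIM1), beside a median of -0.00 over all tested genes. A decrease by over 1 on the log2 scale that passed the test was found for 7 of the 10 genes and for 3.65% of all tested genes. For 8 of the 10, every tunicamycin library was below every control library, as it was for 11.9% of all tested genes. Such a separation fixes the exact two-sided permutation p of each of these 8 genes at 0.00794, the smallest that 5 against 5 libraries allow. In bulk RNA, fewer cells in S phase and less of each mRNA per cell cannot be told apart.

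**Figure D1:**
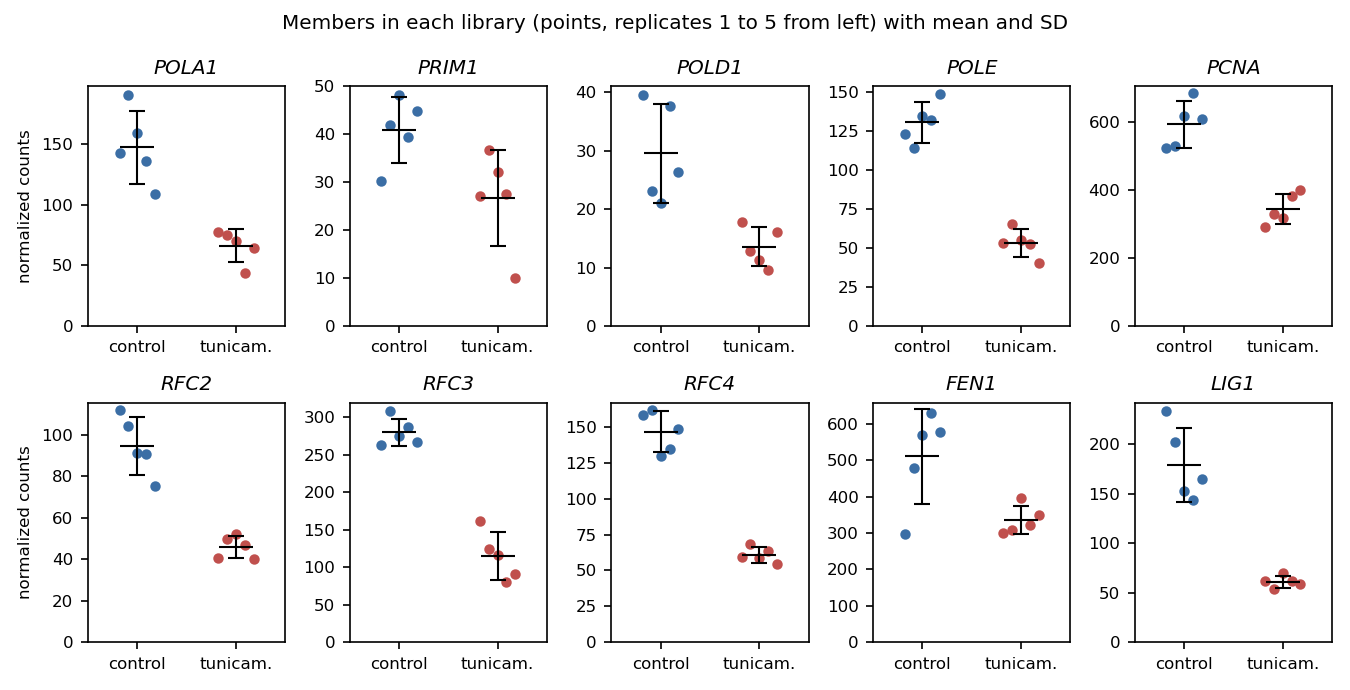
Normalized counts (vertical axes, from 0) of the 10 replication genes in the 5 control (blue) and 5 tunicamycin (red) libraries, with replicates 1 to 5 from left to right and bars for mean and SD. The groups are apart for 8 genes and overlap for PRIM1 and FEN1.

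The promoters of the genes that moved together were read from RefSeq windows on GRCh38.p14, each covering 250 bases before to 50 bases after a start site. All 10 genes matched, with 12 windows in all because POLD1 and PCNA have 2 each. The windows were searched on both strands for TTCCCGC or TTGGCGC, 2 forms of the site bound by E2F factors, the regulators of S phase genes. At least 1 match was found for 8 of the 10 genes, with 12 matches in all, and none for POLD1 and FEN1. The same letters were found in 9.23% of all 35097 windows, in 15.05% of the 8917 tested genes with a window and in 18.04% of the 1541 such genes that were lower with tunicamycin. For these shares of genes, here and below, only the first listed window of a gene was searched. The 10 replication genes were searched in all their windows. The GC box GGGCGG was found for 7 of the 10 genes, near its share of 70.5% among tested genes, and CCAAT for 4 of the 10, against 37.3% of tested genes. The letters TTTGAA, which occur in elements of late cell cycle genes, were found in 0 of the 10 promoters (9.64% of tested genes) and the AP-1 site TGACTCA in 0 (2.90%). The cyclic AMP response element TGACGTCA was found for RFC3 alone (3.36%). A match of letters is a description of the window and was not tested as a binding site. A match of each of the 8 genes is printed here to show how the site stands in each promoter, with the E2F-like letters in capitals and the sequence 5′ to 3′ on the strand of the gene.
POLA1 (chrX:24693764-24693803, plus strand): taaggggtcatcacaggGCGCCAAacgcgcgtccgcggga
PRIM1 (chr12:56752325-56752364, minus strand): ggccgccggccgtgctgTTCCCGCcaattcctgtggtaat
POLE (chr12:132687433-132687472, minus strand): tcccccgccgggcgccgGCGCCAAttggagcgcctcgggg
PCNA (chr20:5126659-5126698, minus strand): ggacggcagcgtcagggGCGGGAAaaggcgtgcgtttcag
RFC2 (chr7:74254388-74254415, minus strand): tgcctcgggtgGCGGGAAgaggaggcgc
RFC3 (chr13:33818077-33818116, plus strand): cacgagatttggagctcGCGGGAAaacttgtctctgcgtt
RFC4 (chr3:186806483-186806522, minus strand): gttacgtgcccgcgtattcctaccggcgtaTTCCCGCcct
LIG1 (chr19:48170435-48170474, minus strand): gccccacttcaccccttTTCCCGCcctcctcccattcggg
The form TTCCCGC lies on the gene's own strand in PRIM1, RFC4 and LIG1 and as its reverse complement in PCNA, RFC2 and RFC3, while POLA1 and POLE show the reverse complement of TTGGCGC. Counted from the start site, the first base of the match shown is at -137 for POLA1, -113 for POLE and LIG1, -59 for PCNA, -55 for RFC3, -24 for PRIM1, -10 for RFC4 and -5 for RFC2. POLA1 has 3 matches and POLE and RFC4 have 2 each. PRIM1, with its match, did not pass the test (log2 fold change -0.55), and FEN1 (-0.61) and POLD1 (-1.12), with none in these windows, did. Whether a match goes with the size of a change was not tested.

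Polymerase α-primase starts every DNA chain. POLA1 (ENSG00000101868, chrX:24693873-24996986 on GRCh38, plus strand, 37 exons in the canonical transcript) encodes its catalytic polymerase subunit. Its level in control replicates 1 to 5 was 143, 191, 159, 136 and 109 normalized counts, which are counts divided by the TMM-scaled library size and multiplied by the mean of that size. In the tunicamycin libraries, in the same order, it was 77.7, 75.4, 69.9, 44 and 64.6 normalized counts. The conditions did not overlap, and the lowest control library was replicate 5. The mean went from 148 ± 30.3 to 66.3 ± 13.5 normalized counts (SD, n = 5 each), or to 45.5% of the control level by the fitted change, with a log2 fold change of -1.14 (SE 0.17, edgeR adjusted p = 3.22e-05).

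PRIM1 (ENSG00000198056, chr12:56730438-56752374, minus strand, 13 exons) encodes the primase subunit that makes the RNA part of the primer. Its normalized counts were 30.1, 41.9, 48.1, 39.4 and 44.7 in control replicates 1 to 5 and 27.0, 36.7, 32.1, 27.5 and 10.1 in the tunicamycin libraries in the same order. The conditions overlapped, since control replicate 1 was below 2 of the tunicamycin libraries, and the lowest tunicamycin library, replicate 5, rests on 5 reads. The log2 fold change was -0.55 (SE 0.24, 95% interval -1.09 to -0.00, edgeR adjusted p = 0.0808), and the exact two-sided permutation test over the 5 and 5 libraries gave p = 0.0238. Without control replicate 1 the log2 fold change was -0.64 (edgeR adjusted p = 0.0447). With scaling by library size only it was -0.62 (edgeR adjusted p = 0.0462). The last 500 bases of the canonical PRIM1 transcript overlap exons of NACA, which encodes a ribosome-associated chaperone subunit, on the same strand, so that reads of the 2 genes may not be separable there.

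The other subunits of the complex were POLA2, the regulatory B subunit, and PRIM2, the large primase subunit with an iron-sulfur cluster. POLA2 went from 46.9 ± 5.03 to 22.9 ± 2.01 normalized counts (log2 fold change -1.04, SE 0.18, edgeR adjusted p = 0.000207). PRIM2 went from 34.2 ± 6.32 to 13.5 ± 0.870 normalized counts (log2 fold change -1.34, SE 0.23, edgeR adjusted p = 0.000159). Both were lower in every tunicamycin library than in any control library. Whether subunits differed in their change was tested on the log2 ratio of 2 genes within each library, which does not depend on the scaling of libraries. The ratio of POLA1 to POLA2 changed by -0.14 (95% interval -0.57 to 0.30) and that of PRIM1 to PRIM2 by 0.59 (-0.29 to 1.47), with exact permutation p-values adjusted over 24 such pairs of 0.522 and 0.209. Without tunicamycin replicate 5 the ratio of PRIM1 to PRIM2 changed by 0.92, with an adjusted exact permutation p of 0.0272.

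Polymerase δ elongates the lagging strand. POLD1 (ENSG00000062822, chr19:50384204-50418018, plus strand, 27 exons) encodes its catalytic subunit, which also holds the proofreading exonuclease. It was at 39.6, 23.2, 21.0, 37.6 and 26.4 normalized counts in control replicates 1 to 5, and at 17.7, 12.9, 11.3, 9.62 and 16.1 in the tunicamycin libraries in the same order. The conditions did not overlap, although the highest tunicamycin library, replicate 1, came close to the lowest control library, replicate 3, and the tunicamycin libraries held 7 to 21 reads each. The log2 fold change was -1.12 (SE 0.27, edgeR adjusted p = 0.0033), with the widest error among the 10 genes. A readthrough gene on the same strand (ENSG00000142539) overlaps POLD1 exons outside the last 500 bases of the canonical transcript.

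Among the accessory subunits, POLD3, which binds PCNA, went from 74.9 ± 7.65 to 35.5 ± 8.86 normalized counts (log2 fold change -1.08, SE 0.17, edgeR adjusted p = 7.52e-05). POLD2, which joins the catalytic subunit to the others, was at 334 ± 25.2 and 311 ± 19.2 normalized counts (log2 fold change -0.10, 95% interval -0.31 to 0.10, edgeR adjusted p = 0.399). The small subunit POLD4 was at 37.7 ± 5.70 and 40.5 ± 6.25 normalized counts (log2 fold change 0.09, 95% interval -0.33 to 0.50, edgeR adjusted p = 0.752). The subunits therefore changed unequally. The log2 ratio of POLD1 to POLD2 within a library changed by -0.97 (95% interval -1.48 to -0.46) and that of POLD1 to POLD4 by -1.18 (-1.60 to -0.76), each with an adjusted exact permutation p of 0.0147. The ratio of POLD1 to POLD3 changed by 0.01, with a wide interval of -0.78 to 0.81.

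Polymerase ε works on the leading strand. POLE (ENSG00000177084, chr12:132623753-132687376, minus strand, 49 exons) encodes the catalytic subunit, which proofreads its own synthesis. Its level was 123, 114, 135, 132 and 148 normalized counts in control replicates 1 to 5 and 53.2, 65.5, 54.8, 52.2 and 40.4 in the tunicamycin libraries in the same order. Every tunicamycin library lay well below the controls, with tunicamycin replicate 5 lowest. The mean went from 130.4 ± 12.9 to 53.2 ± 8.94 normalized counts (SD, n = 5 each). The log2 fold change was -1.27 (SE 0.14, edgeR adjusted p = 1.15e-06).

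None of the 3 other subunits of polymerase ε passed the test. POLE2, the B subunit, was at 30.2 ± 9.61 and 26.3 ± 12.5 normalized counts (log2 fold change -0.29, 95% interval -1.02 to 0.44, edgeR adjusted p = 0.507). The histone-fold subunits POLE3 and POLE4, of which POLE3 also serves in a chromatin remodelling complex, had log2 fold changes of -0.17 (95% interval -0.38 to 0.04) and 0.08 (-0.21 to 0.36), with edgeR adjusted p-values of 0.164 and 0.676. POLE and its histone-fold partners differed in their change. The log2 ratio of POLE to POLE3 within a library changed by -1.12 (95% interval -1.49 to -0.75) and that of POLE to POLE4 by -1.37 (-1.91 to -0.83), each with an adjusted exact permutation p of 0.0147. The ratio of POLE to POLE2 changed by -1.02 (-2.08 to 0.04), with an adjusted exact permutation p of 0.0889. It passed when tunicamycin replicate 1 was left out, at -1.30 with an adjusted exact permutation p of 0.0272.

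**Figure D2:**
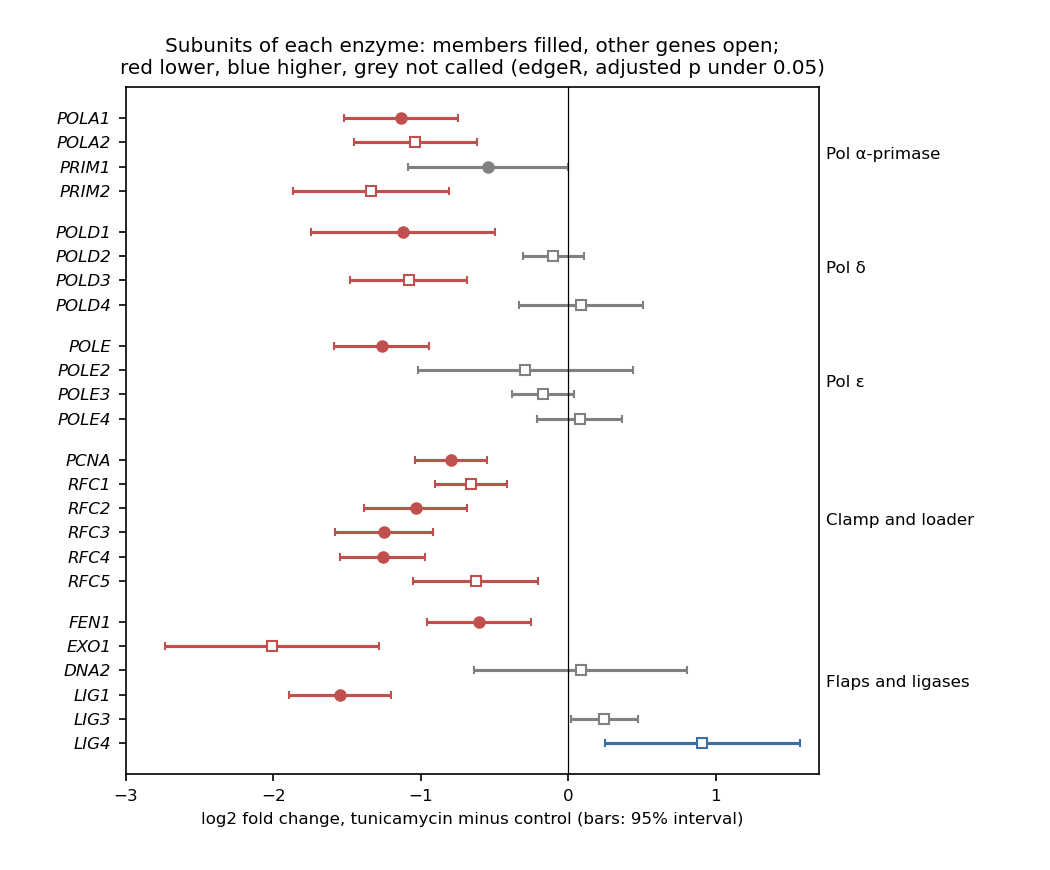
Log2 fold change (horizontal axis, tunicamycin minus control, bars for the 95% interval) of the 10 replication genes (filled circles) and of other subunits and like enzymes (open squares), grouped by enzyme. Red genes were lower and blue genes higher at an edgeR adjusted p under 0.05, and grey genes did not pass, among them POLD2, POLD4, POLE2, POLE3 and POLE4.

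PCNA (ENSG00000132646, chr20:5114953-5126626, minus strand, 6 exons) encodes the ring-shaped clamp on which the polymerases, FEN1 and LIG1 ride. It was at 522, 529.7, 617, 685 and 607 normalized counts in control replicates 1 to 5, and at 291, 327, 317, 381 and 399.5 in the tunicamycin libraries in the same order. The conditions did not overlap, and the lowest controls were replicates 1 and 2. The mean went from 592 ± 67.8 to 343 ± 45.2 normalized counts (SD, n = 5 each), or to 57.6% of the control level by the fitted change, with a log2 fold change of -0.80 (SE 0.11, edgeR adjusted p = 1.04e-05).

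The alternative checkpoint clamp is a ring of RAD9A, RAD1 and HUS1, which is loaded at damaged DNA and not for bulk synthesis. RAD9A was at 73.6 ± 4.42 and 77.6 ± 6.90 normalized counts (log2 fold change 0.08, edgeR adjusted p = 0.665). HUS1 was at 68.6 ± 5.50 and 72.7 ± 12.8 normalized counts (log2 fold change 0.08, or -0.00 with scaling by library size only, edgeR adjusted p = 0.736). RAD1, named after its values were seen because it completes the ring, was at 148 ± 34.5 and 109 ± 23.8 normalized counts and lower in all 5 replicate pairs (log2 fold change -0.41, 95% interval -0.80 to -0.03, edgeR adjusted p = 0.063). It passed with the replicate block, at -0.44 (edgeR adjusted p = 0.00772, and 0.028 with the block in DESeq2). It also passed without control replicate 5, at -0.50 (edgeR adjusted p = 0.0306), and without tunicamycin replicate 1, at -0.47 (0.0437). In the main fit none of the 3 genes of the ring passed, and their changes were not tested against each other. RAD1 was not among the pairs tested against PCNA. The log2 ratio of PCNA to RAD9A and to HUS1 within a library changed by -0.86 (95% intervals -1.17 to -0.56 for RAD9A and -1.24 to -0.48 for HUS1), with an adjusted exact permutation p of 0.0147 for both. If counting did not use the strand, reads of PPP1CA on the opposite strand could enter the 3′ end of RAD9A.

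Replication factor C opens the PCNA ring with ATP. RFC2 (ENSG00000049541, chr7:74231499-74254458, minus strand, 11 exons) encodes a small subunit of the loader. Its normalized counts were 112, 104, 91.0, 90.5 and 75.2 in control replicates 1 to 5 and 40.5, 49.6, 52.0, 46.7 and 40.4 in the tunicamycin libraries in the same order. No tunicamycin library reached the lowest control library, replicate 5. The log2 fold change was -1.04 (SE 0.15, edgeR adjusted p = 3.28e-05).

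RFC3 (ENSG00000133119, chr13:33818069-33966558, plus strand, 9 exons) encodes another small subunit. It was at 263, 309, 275, 287 and 267 normalized counts in control replicates 1 to 5, close to each other, and at 162, 124, 117, 81.1 and 90.8 in the tunicamycin libraries in the same order. All 5 tunicamycin libraries were lower, with replicate 1 the highest of them. The mean went from 280.1 ± 18.2 to 115 ± 31.8 normalized counts (SD, n = 5 each), with a log2 fold change of -1.25 (SE 0.14, edgeR adjusted p = 1.81e-06).

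RFC4 (ENSG00000163918, chr3:186789880-186807058, minus strand, 11 exons) encodes a further small subunit. Its level was 158, 161, 129, 134 and 148 normalized counts in control replicates 1 to 5 and 59.1, 68.5, 58.6, 63.2 and 54.5 in the tunicamycin libraries in the same order. The tunicamycin libraries were close to each other and all far below the controls. The log2 fold change was -1.26 (SE 0.13, edgeR adjusted p = 3.3e-07), and the 5 replicate pairs gave log2 ratios of -1.44 to -1.08. EIF4A2, a translation initiation factor gene, overlaps RFC4 exons on the opposite strand, away from the last 500 bases of the canonical transcript.

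The large subunit RFC1 and the small subunit RFC5 were lower as well. RFC1 went from 854 ± 105 to 538 ± 71.3 normalized counts (log2 fold change -0.66, SE 0.11, edgeR adjusted p = 7.66e-05), and RFC5 from 93.0 ± 16.1 to 61.1 ± 18.1 (log2 fold change -0.63, SE 0.19, edgeR adjusted p = 0.0124). All 5 subunits of the loader thus passed the test, but not by the same amount. The log2 ratio of RFC3 to RFC1 changed by -0.65 (95% interval -0.92 to -0.38) and that of RFC4 to RFC1 by -0.59 (-0.90 to -0.28), each with an adjusted exact permutation p of 0.0147, so that both small subunits fell more than the large one. For RFC2 against RFC1 the change was -0.36 (-0.76 to 0.04), with an adjusted exact permutation p of 0.0952. RFC4 against RFC5 gave -0.63 (-1.21 to -0.05), with an adjusted exact permutation p of 0.068, which was 0.0272 at a change of -0.78 without tunicamycin replicate 2. Against RFC5, the changes of RFC2 (-0.40, 95% interval -1.04 to 0.24) and RFC3 (-0.69, -1.54 to 0.16) did not pass.

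FEN1 (ENSG00000168496, chr11:61792911-61797238, plus strand, 2 exons) encodes the nuclease that cuts the displaced flap of an Okazaki fragment. It was at 297, 478, 569, 629 and 576 normalized counts in control replicates 1 to 5, and at 299.8, 309, 395, 323 and 349 in the tunicamycin libraries in the same order. Control replicate 1 was below every tunicamycin library, while the other 4 controls were above them all. The log2 fold change was -0.61 (SE 0.15, edgeR adjusted p = 0.00429), the exact two-sided permutation test gave p = 0.0476, and FEN1 was lower in 4 of 5 replicate pairs. Without control replicate 1 the log2 fold change was -0.75 and the call held. Exons of FADS2, a fatty acid desaturase gene, overlap FEN1 on the same strand outside the last 500 bases.

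EXO1 and DNA2 encode nucleases that act on flaps and ends of DNA as well. EXO1 went from 44.1 ± 12.4 to 11.3 ± 5.14 normalized counts (log2 fold change -2.01, SE 0.31, edgeR adjusted p = 6.43e-05). The tunicamycin libraries held few EXO1 reads, and replicate 3 was at 2.83 normalized counts. DNA2 had few reads, at 18.8 ± 5.05 and 20.5 ± 10.1 normalized counts (log2 fold change 0.08, 95% interval -0.64 to 0.81, or -0.01 with scaling by library size only). FEN1 fell less than EXO1. The log2 ratio of FEN1 to EXO1 within a library changed by 1.48 (95% interval 0.22 to 2.74, adjusted exact permutation p = 0.0147), and that of FEN1 to DNA2 by -0.61 (-1.38 to 0.16), with an adjusted exact permutation p of 0.123. When a library was left out, the change of FEN1 to EXO1 was between 1.00 and 1.67.

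LIG1 (ENSG00000105486, chr19:48115445-48170603, minus strand, 28 exons) encodes the ligase that joins Okazaki fragments. Its level was 233, 202, 153, 143 and 165 normalized counts in control replicates 1 to 5 and 61.7, 53.6, 69.9, 61.8 and 58.5 in the tunicamycin libraries in the same order. The 5 tunicamycin libraries were nearly alike and far below the controls, of which replicates 1 and 2 were highest. The mean went from 179 ± 37.5 to 61.1 ± 5.95 normalized counts (SD, n = 5 each), or to 34.2% of the control level by the fitted change, and the log2 fold change of -1.55 (SE 0.15, edgeR adjusted p = 2.28e-07) was the lowest of the 10 genes.

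The ligases outside replication moved otherwise. LIG3, which seals nicks in base excision repair and in mitochondria, was at 176 ± 6.60 and 208 ± 17.9 normalized counts (log2 fold change 0.24, edgeR adjusted p = 0.0619, or 0.29 and 0.0371 without tunicamycin replicate 5). LIG4, the ligase of nonhomologous end joining, rose from 16.8 ± 7.13 to 31.5 ± 5.0 normalized counts (log2 fold change 0.91, SE 0.29, edgeR adjusted p = 0.0187). LIG4 had few reads, and its conditions overlapped, with controls up to 25.4 and tunicamycin libraries from 23.6 normalized counts. Its lowest library was control replicate 1, at 6.03. The log2 ratio of LIG1 to LIG3 within a library was close to 0 in controls, at 0.00 ± 0.34, and -1.76 ± 0.15 with tunicamycin (SD, n = 5 each), so that it changed by -1.76 (95% interval -2.14 to -1.38). The ratio of LIG1 to LIG4 changed by -2.54 (-3.61 to -1.48), and both ratios had an adjusted exact permutation p of 0.0147. When a library was left out, the change of LIG1 to LIG4 was between -2.75 and -2.12. Exons of RFFL on the opposite strand overlap the 3′ end of LIG3.

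**Figure D3:**
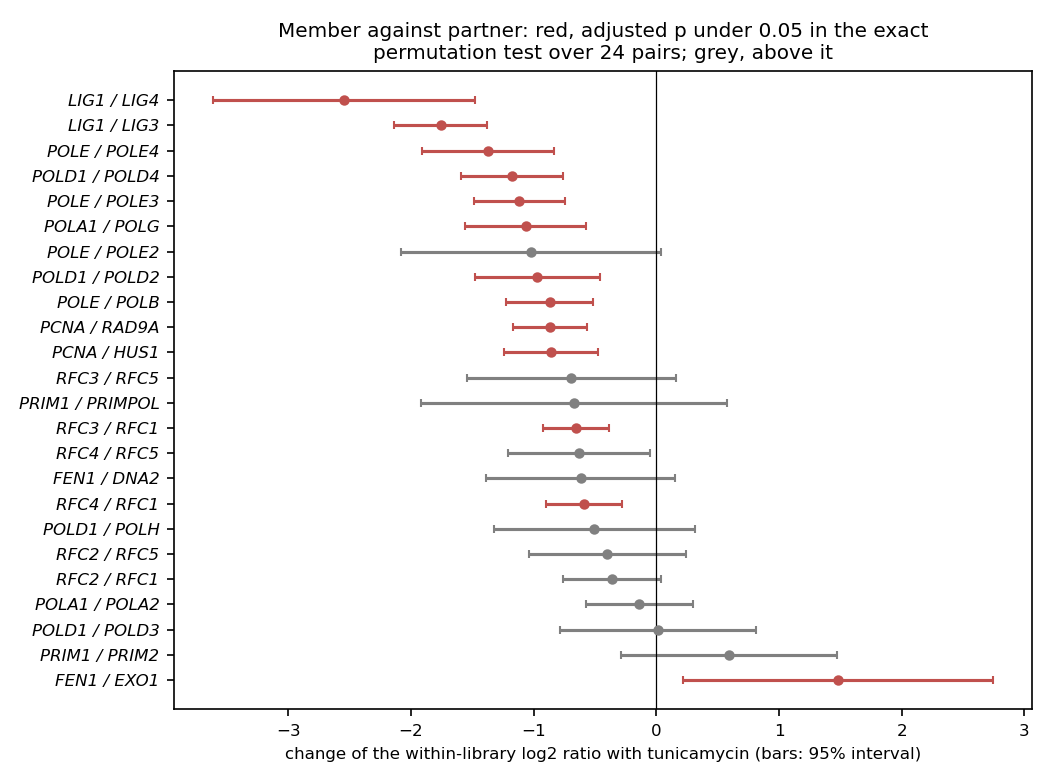
Change with tunicamycin of the log2 ratio of 2 genes within a library (horizontal axis, points, bars for the 95% interval) for 24 pairs of a replication gene and a partner of the same complex or a like enzyme. The 13 red pairs had an adjusted exact permutation p under 0.05, from LIG1 against LIG4 at -2.54 to FEN1 against EXO1 at 1.48, and the 11 grey pairs did not.

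Of the 24 pairs of a replication gene with a partner, 13 passed an adjusted exact permutation p under 0.05, each at the smallest p that 5 against 5 libraries allow (0.00794 before adjustment). In 12 of the 13 the replication gene fell relative to the partner, and FEN1 against EXO1 was the exception. Beside the pairs given with each enzyme, the log2 ratio of POLE to POLB, the polymerase of base excision repair, changed by -0.87 (95% interval -1.22 to -0.51). The ratio of POLA1 to POLG, the mitochondrial polymerase, changed by -1.06 (-1.56 to -0.57). Pairs that did not pass include POLD1 against POLH, the translesion polymerase η (-0.51, 95% interval -1.33 to 0.31), and PRIM1 against PRIMPOL, a primase used at stalled forks (-0.67, -1.91 to 0.57). POLH and PRIMPOL had few reads, and exons of GTPBP2 and of CENPU on the opposite strand overlap their respective 3′ ends.

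The 10 genes were also compared with each other. Of the 45 pairs among them, 0 passed an adjusted exact permutation p under 0.05, and 10 had an unadjusted p under 0.05. The 2 pairs at the smallest p were FEN1 against LIG1, whose log2 ratio changed by 0.96 (95% interval 0.21 to 1.7), and RFC2 against LIG1, with a change of 0.50 (0.22 to 0.78), both with an adjusted exact permutation p of 0.143. In these pairs LIG1 had the lower log2 fold change. Among pairs of enzymes that work on the same substrate, the ratio of POLA1 to POLE changed by 0.14 (-0.43 to 0.71) and that of POLA1 to POLD1 by -0.08 (-0.74 to 0.59), so that changes of these sizes in either direction could not be told from 0.

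The replicate experiments of the 5 days showed the same direction with unequal sizes. The median log2 ratio of the 10 genes within a pair was -1.01, -0.94, -1.04, -1.14 and -1.16 for replicates 1 to 5. In 9 of the 10 genes the tunicamycin library was lower in all 5 pairs, and FEN1, with a log2 ratio of 0.01 in replicate pair 1, was the exception. PRIM1 ranged from -0.15 in pair 1 to -2.09 in pair 5, where the tunicamycin library held 5 reads. PCNA ranged from -0.96 to -0.60 and RFC4 from -1.44 to -1.08, and these were the most even of the 10. The lowest ratios of pair 1 were those of LIG1 and RFC2, while in pair 4 POLD1, RFC3 and POLA1 were lowest.

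**Figure D4:**
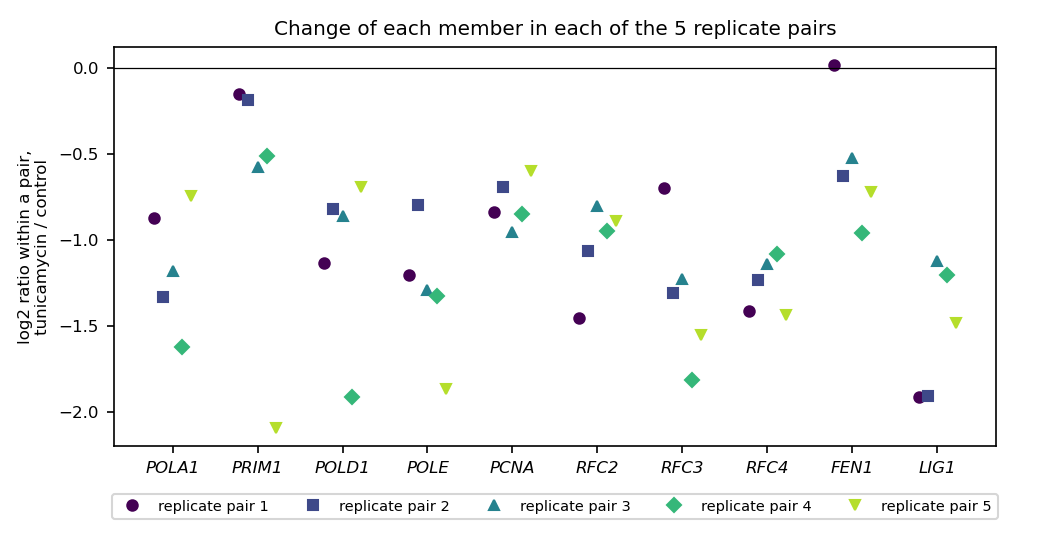
Log2 ratio of tunicamycin to control within each of the 5 replicate pairs (vertical axis, 1 symbol per pair) for the 10 replication genes (horizontal axis). All points lie below 0 except FEN1 in pair 1, at 0.01, and PRIM1 in pair 5 is the lowest, at -2.09.

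Around the core enzymes, lists of genes with related roles were counted in the same fit, and each count stands beside the 16.6% lower and 17.6% higher of all tested genes. Of the 10 other subunits of the same holoenzymes described above, 5 were lower and 0 higher, with a median log2 fold change of -0.46. The 10 genes for partners of PCNA had 9 lower and 0 higher, with a median of -0.91. They were led by DTL, the substrate receptor of a ubiquitin ligase that acts on PCNA-bound proteins, at -1.89 (edgeR adjusted p = 3.92e-09) and CHAF1A, a histone chaperone subunit at the fork, at -1.33 (edgeR adjusted p = 5.44e-08). USP1, which removes ubiquitin from PCNA, had a smaller decrease of -0.44 (edgeR adjusted p = 0.00165), and the fork remodeller ZRANB3 did not pass, at -0.16 (edgeR adjusted p = 0.447).

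Genes that couple the polymerases to the helicase or to the checkpoint numbered 4, with 3 lower, 0 higher and a median of -0.93. CLSPN, the checkpoint mediator claspin, had a log2 fold change of -1.35 (edgeR adjusted p = 4.5e-09), WDHD1, which tethers polymerase α, -1.11 (0.000246) and TIMELESS -0.76 (4.99e-05). TIPIN, the partner of TIMELESS in the fork protection complex, was at 45.6 ± 10.1 and 44.7 ± 8.50 normalized counts (log2 fold change -0.05, edgeR adjusted p = 0.875).

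Of 8 genes for alternative clamps and loaders, 3 were lower and 1 higher, with a median of -0.33, and 4 were lower with the replicate block, where RAD1 passed. ATAD5, whose loader complex takes PCNA off the DNA, had a log2 fold change of -1.12 (edgeR adjusted p = 1.04e-06), and CHTF18, of the loader used in sister chromatid cohesion, -0.92 (0.00026). RAD17, which loads the checkpoint clamp, was higher in all 5 pairs, at 108 ± 22.6 and 156 ± 13.0 normalized counts (log2 fold change 0.53, edgeR adjusted p = 0.00696). If counting did not use the strand, reads of GNG13 could enter the 3′ end of CHTF18.

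Genes of lagging strand processing and the single-strand binding protein RPA numbered 9, with 5 lower, 1 higher and a median of -0.35. Without control replicate 4 only 3 of them were lower. Beside EXO1, RNASEH2A, the catalytic subunit of ribonuclease H2, was lower (log2 fold change -1.07, edgeR adjusted p = 0.000105), and its 3′ end overlaps THSD8 on the same strand. Its partner subunit RNASEH2B was higher, at 71.7 ± 13.6 and 122 ± 23.9 normalized counts (log2 fold change 0.77, edgeR adjusted p = 0.00115). RNASEH1, a separate enzyme for RNA-DNA hybrids, was at 0.22 (edgeR adjusted p = 0.132, or 0.31 and 0.0174 without tunicamycin replicate 4).

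Repair and translesion polymerases served as DNA polymerases outside the core fork. Of 12 listed, 11 were tested (POLN had too few reads), and 3 were lower and 1 higher, with a median log2 fold change of -0.24. For so short a list these counts are near the shares of all tested genes, and nothing about the list is read from them. POLQ, the polymerase of theta-mediated end joining, was the lowest of them at -1.35 (edgeR adjusted p = 2.98e-06). POLB was at -0.39 (edgeR adjusted p = 0.0295), but it did not pass when control replicate 1 or 3 or tunicamycin replicate 2, 3, 4 or 5 was left out, with log2 fold changes of -0.39 to -0.32 and edgeR adjusted p-values of 0.0501 to 0.0777. POLI was at 0.67 (edgeR adjusted p = 0.0274) and did not pass without control replicate 1 or 2 or tunicamycin replicate 2 or 3 (edgeR adjusted p-values of 0.0555 to 0.08). POLH was at -0.64 (edgeR adjusted p = 0.166), PRIMPOL at -0.04 (0.922) and POLM, of end joining, at 0.27 (0.333). Without control replicate 3 or tunicamycin replicate 3, 4 or 5, 1 of the list was lower.

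Ligases and proteins of break ends other than LIG1 were 5, of which 2 were lower and 1, LIG4, was higher, with a median of -0.04, also near the shares of all tested genes for so few genes. XRCC1, the scaffold that holds LIG3, was at 36.4 ± 20.2 and 14.5 ± 8.92 normalized counts (log2 fold change -1.21, edgeR adjusted p = 0.0164), and did not pass without control replicate 1, at -0.82 (edgeR adjusted p = 0.0684).

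By the measure used here, the Pearson correlation over the 10 libraries with the mean log2 normalized count of the 10 replication genes, the most alike of 7684 other genes with at least 50 normalized counts were HELLS, SQLE, SLC2A3, MKI67 and MYLK. Their r was 0.997, 0.996, 0.994, 0.993 and 0.992. The difference between the 2 conditions makes up most of such an r, which is given as a description. With each condition's mean taken out, r was 0.88, 0.81, 0.77, 0.82 and 0.72 in the same order, over the same 10 libraries. The genes were picked by r over these libraries, so high values here follow in part from the choice and are no separate check. HELLS, a chromatin remodeller of the helicase family, went from 896 to 267 normalized counts on average and MKI67, the gene of the Ki-67 proliferation antigen, from 2562 to 928. SQLE, which encodes squalene epoxidase of sterol synthesis, went from 1212 to 403, SLC2A3, a glucose transporter gene, from 1483 to 556, and MYLK, for myosin light chain kinase, from 519.6 to 175. The log2 fold changes of these genes were between -1.73 (HELLS) and -1.41 (SLC2A3).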

How the data were processed

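HepG2 cells, untreated or treated with tunicamycin, gave 10 QuantSeq libraries, 5 of each condition. The nf-core RNA-Seq pipeline was run by the authors on hg19 with its default settings. The deposited values are raw counts per gene without normalization. Which aligner, counting program and strand setting those defaults stand for is not given in the sources used here. Genes were filtered with filterByExpr (minimum count 2, minimum total 10, as in the study's methods), and 12733 genes were fitted in edgeR 4.0.16 (R 4.3.3) with TMM scaling and the quasi-likelihood test, without any term but condition. A gene was called at a Benjamini-Hochberg adjusted p under 0.05. The SE of a log2 fold change is its size divided by the square root of F. Intervals of 95% were taken from that SE, or for ratios from the pooled SD, with 8 residual degrees of freedom. Ratios of 2 genes within a library used raw counts with a pseudocount of 0.5 and exact two-sided permutation tests (scipy 1.17.1) over all splits into 5 and 5.

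Per the labels of the series, the replicates are experiments on separate days. A control and a tunicamycin library of the same replicate number were taken as a pair here. Over 10736 genes, the deviations of such a pair from the condition means correlated at 0.317, 0.0171, 0.0391, 0.122 and 0.0864 (replicates 1 to 5). Nothing says that libraries of a condition came from other than the same cell stock, so p-values measure the spread between these experiments.

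The 10 genes, the lists, the pairs and the tests were chosen with earlier results of these data known. Named genes are the 10 genes, the other subunits, all partners, the 2 lowest and 2 highest log2 fold changes of each list and the 5 most alike genes, with RAD1 added after its values were seen. A gene that this rule names is not reported here. The table's row for PCLAF is KIAA0101 and that for TWNK is C10orf2. PCNA, RFC3 and FEN1 have annotated pseudogenes (PCNAP1, PCNAP3, PCNAP4, RFC3P1 and FEN1P1), and how reads shared with them were counted is not given in the sources used here. Gene positions are those of GENCODE on GRCh38, matched by Ensembl identifier, and promoter windows are those of RefSeq on GRCh38.p14.

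On simulated data drawn for this comparison (12574 genes), the test called 69 of 98 genes changed by 0.75 on the log2 scale and 88 of 102 changed by 1, with 5 unchanged genes called and 0 in the wrong direction. Far fewer genes were changed there than the 4353 called in the real data, and no effect of the day was simulated. These rates may therefore differ from those of the real comparison. Alternatives were DESeq2 1.42.0, its size factors, library size only, no filter, default filter minimums, the replicate block in both tools, thinning to 2234682 counts, a pseudocount of 2 for ratios, and each library left out.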

Additional observations from a re-analysis of the deposited data

How the results depend on the processing

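The count of replication genes that were lower was 9 in every alternative except library size only and the set without control replicate 1, where PRIM1 passed as well and it was 10. With the replicate block the count was 9 in edgeR and in DESeq2, and among the list genes named here the paired fits changed the call of RAD1, which passed in both tools, and of POLI in DESeq2, with an adjusted p of 0.0811. The block moved the number of all tested genes called different from 4353 to 4811 in edgeR and from 4322 to 3878 in DESeq2, and the alternatives ranged from 3751 to 4811. The median log2 fold change of the 10 genes was between -1.22 (without tunicamycin replicate 1) and -1.03 (without tunicamycin replicate 4) when 1 library was left out. Of the genes in the other lists 33 were lower, and between 30 and 35 in the alternatives, while 8 were higher, and between 6 and 9. Over all tested genes 2116 were lower, or 16.6%, and between 1799 and 2570 in the alternatives. Pairs with a partner that passed were 13 or 14 in the alternatives run on ratios, and pairs among the 10 genes were 0 in each of them. With so few libraries, the smallest possible exact p left little room for pairs among the 10 genes to pass.

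The direction turned only for values close to 0 that passed in no alternative. With library size only, POLE4 was at -0.0156, HUS1 at -0.0039 and DNA2 at -0.00641. With 1 library left out, the lowest and highest values were -0.0164 and 0.16 for POLE4, -0.0251 and 0.16 for HUS1, -0.22 and 0.26 for DNA2, -0.17 and 0.0421 for TIPIN, -0.24 and 0.0712 for PRIMPOL and -0.15 and 0.26 for POLD1 against POLD3, which was -0.0759 with thinned counts. With library size only, POLI (adjusted p = 0.0503) and TOP2B (0.0512) did not pass and RAD1 (0.0367) did, as it did with no filter (0.0461), and with thinned counts neither POLI (0.0604) nor POLB (0.117) did. The cause was not tested. The depth of the shallowest library limits genes with few reads, such as POLD1, PRIM1, POLE2 and DNA2.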

Other observations

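Genes of mitochondrial DNA replication, which runs on its own polymerase, are given as values. Of 7 listed and tested, 2 were lower, 2 were higher and 3 did not pass, with a median log2 fold change of 0.10, and for so few genes these counts are near the 16.6% lower and 17.6% higher of all tested genes. POLG2, the accessory subunit of the mitochondrial polymerase, went from 49.1 ± 13.8 to 80.7 ± 10.4 normalized counts (SD, n = 5 each) with a log2 fold change of 0.71 (edgeR adjusted p = 0.00689). SSBP1, the mitochondrial single-strand binding protein, went from 749 ± 13.4 to 949.8 ± 38.8 (log2 fold change 0.34, edgeR adjusted p = 0.00132). The nuclease gene MGME1 (log2 fold change -0.65, edgeR adjusted p = 0.000148) and POLRMT, which encodes the mitochondrial RNA polymerase that makes the primers (-0.50, 0.00182), were lower. The catalytic subunit POLG was at 97.9 ± 4.66 and 92.5 ± 8.34 normalized counts (log2 fold change -0.08, edgeR adjusted p = 0.633). Exons of FANCI on the opposite strand overlap the 3′ end of POLG.

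The topoisomerases were split. TOP2A, the form of proliferating cells, went from 6245 ± 507 to 3294 ± 596 normalized counts (log2 fold change -0.92, edgeR adjusted p = 3.07e-06). TOP1 rose from 2967 ± 211 to 4122 ± 771 (log2 fold change 0.48, edgeR adjusted p = 0.00256), and TOP2B, the form also found in resting cells, from 330.2 ± 59.5 to 431 ± 11.5 (log2 fold change 0.38, edgeR adjusted p = 0.0121, or 0.30 and 0.0512 with library size only). Each of the 3 kept its own direction in all 5 replicate pairs.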
